A study of Homo sapiens with 12 samples.

Results

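The genes described here are ATF4 and 9 transcription or signalling genes of the integrated stress response, ATF3, DDIT3, TRIB3, CHAC1, SESN2, NUPR1, DDIT4, PPP1R15A and CEBPB. They are 10 of the 57992 genes of the deposited count table and were found there by their Ensembl identifiers. They had been picked with their response to MUC1 silencing known, so their values between silenced and control cells are a description and carry no test. RNA was sequenced from BT-549 and SUM149, established human breast cancer lines without estrogen receptor, progesterone receptor or HER2, in a study of MUC1-C and the NuRD chromatin complex. The groups were BT-549 MUC1shRNA, BT-549 CshRNA, SUM149 MUC1shRNA and SUM149 CshRNA, each with 3 libraries. MUC1shRNA is a stably expressed short hairpin RNA against MUC1, the gene of a transmembrane mucin, and CshRNA is its control. In BT-549 the labels also call the controls vector, so whether they carried a hairpin is not certain. BT-549 grew in RPMI1640 medium with serum and insulin, and SUM149 in Ham's F-12 medium with serum, insulin and hydrocortisone. The labels speak of triplicate cultures and do not say whether each received the hairpin separately, so p-values measure the spread between these libraries, which may be technical.

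The integrated stress response starts with kinases that sense shortage of amino acids, unfolded protein, shortage of heme or double-stranded RNA and that phosphorylate the translation factor eIF2. General protein synthesis then falls, while the coding sequence of ATF4 is translated more, because upstream open reading frames in its leader are bypassed. ATF4 is a bZIP transcription factor that pairs with C/EBP and other bZIP proteins and switches on genes of amino acid supply, together with regulators that prolong, limit or end the response. An mRNA level is therefore not a level of ATF4 protein, which was not analysed here.

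In BT-549, 7 of the 10 genes had more RNA in MUC1shRNA than in CshRNA cells and passed the threshold of edgeR's test over all genes, where 16.8% of the tested genes were called higher. Their log2 fold changes ran from 0.26 for CEBPB to 1.03 for NUPR1. The other 3 in BT-549 were ATF4, DDIT4 and PPP1R15A, whose MUC1shRNA and CshRNA libraries overlapped. In SUM149 all 10 genes had less RNA in MUC1shRNA than in CshRNA cells and passed the threshold, where 28.9% of the tested genes were called lower, with log2 fold changes from -4.98 for CHAC1 to -0.54 for CEBPB. ATF4 RNA was between 415 and 449 CPM in 9 of the 12 libraries and between 126 and 141 CPM in the 3 SUM149 MUC1shRNA libraries. CPM is the usual scale of counts relative to a library's total, here after TMM scaling over all 12 libraries. These are bulk libraries, so less RNA per cell and fewer cells with the RNA cannot be told apart.

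The targeted gene was read first, as a check of the labels. MUC1 (ENSG00000185499.16) was at 3.74, 6.14 and 4.39 CPM in BT-549 MUC1shRNA libraries, against 53.2, 54.1 and 56.4 CPM in BT-549 CshRNA libraries. In SUM149 it was at 1.02, 0.323 and 0.469 CPM with MUC1shRNA, against 16.1, 16.2 and 11.8 CPM with CshRNA. Every silenced library was thus below every control library of its line. Depth was 16373893 to 21248768 counts in BT-549 MUC1shRNA, 16332364 to 20745835 in BT-549 CshRNA, 7931614 to 9623924 in SUM149 MUC1shRNA and 19392422 to 24140623 in SUM149 CshRNA libraries. The SUM149 control arm therefore held 2.44 times the counts of the silenced arm. Some libraries stood apart from their replicates over all genes, namely BT-549 MUC1shRNA 2, BT-549 CshRNA 3 and SUM149 CshRNA 3. Among the defining markers of the lines, EPCAM and CDH1, epithelial adhesion genes, averaged 0.297 and 0.918 CPM in BT-549 CshRNA cells, against 393 and 195 CPM in SUM149 CshRNA cells. VIM, the mesenchymal filament gene, averaged 1550 CPM in BT-549 CshRNA and 30.7 CPM in SUM149 CshRNA cells. ESR1, the estrogen receptor gene, was at most at 4.85 CPM and PGR, the progesterone receptor gene, at most at 1.51 CPM in any library, and ERBB2, which encodes HER2, was at 33.6 to 60.6 CPM.

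The promoters were searched for the letters TGATGNAA, the core of the composite element that ATF4 with a C/EBP partner is known to bind, for TGACGTCA, the cyclic AMP response element read by ATF and CREB proteins, and for the endoplasmic reticulum stress element, which is read by ATF6. Both strands were searched in RefSeq windows from 250 bases before to 50 bases after each transcription start on GRCh38.p14, and all of the genes but NUPR1 matched an entry, 9 of 10, with 15 windows among them. TGATGNAA was found in 1 window of CHAC1 and 1 window of ATF3, TGACGTCA in 1 window of PPP1R15A, and the third motif in none of the 15. Of 35116 windows in all, 3.62% held TGATGNAA, 1.85% held TGACGTCA and 0.0769% held the third motif. No match of a motif overlapped a match of another in these windows. The 250 bases before the start are shown for the windows with a match, because CHAC1 had the largest fold change of the 10 genes, ATF3 is itself a bZIP factor of the response, and PPP1R15A was among the 3 genes whose BT-549 arms overlapped. The matched letters are in capitals, and the sequences are written from 5′ to 3′ on the plus strand, which is the strand of all 3 genes. For CHAC1 (chr15:40953221-40953470) the match begins 209 bases before the start and reads the motif on the opposite strand.
CHAC1: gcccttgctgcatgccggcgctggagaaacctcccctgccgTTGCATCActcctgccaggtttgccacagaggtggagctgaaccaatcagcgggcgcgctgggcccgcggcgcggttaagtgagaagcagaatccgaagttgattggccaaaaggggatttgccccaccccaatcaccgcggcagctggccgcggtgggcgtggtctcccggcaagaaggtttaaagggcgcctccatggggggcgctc
ATF3 (chr1:212565157-212565406) has its match 191 bases before the start.
ATF3: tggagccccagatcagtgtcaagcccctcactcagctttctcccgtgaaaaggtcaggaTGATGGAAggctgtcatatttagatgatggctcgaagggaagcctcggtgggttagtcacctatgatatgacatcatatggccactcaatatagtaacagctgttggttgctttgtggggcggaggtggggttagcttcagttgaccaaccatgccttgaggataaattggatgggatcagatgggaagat
PPP1R15A (chr19:48872171-48872420) has its match 58 bases before the start.
PPP1R15A: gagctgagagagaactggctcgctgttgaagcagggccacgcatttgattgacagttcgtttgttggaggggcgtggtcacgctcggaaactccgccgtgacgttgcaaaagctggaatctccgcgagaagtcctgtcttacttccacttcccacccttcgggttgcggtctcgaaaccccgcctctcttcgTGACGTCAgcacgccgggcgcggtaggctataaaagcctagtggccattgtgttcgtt
These are matches of letters and not measured binding sites.

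The leaders were also compared, since the control of ATF4 translation lies there. In 1 GENCODE 29 transcript per gene, 7 of the 10 genes (70%) had an AUG upstream of the coding sequence, against 50.2% of 19499 protein-coding genes. ATF4 had 7 upstream AUGs, and 2 of them open a reading frame that runs out of frame into the coding sequence. Such an overlapping frame was also present in ATF3 and DDIT3, so that 3 of 10 genes (30%) had one, against 16.5% of protein-coding genes. The leaders of the 10 genes were also longer, with a median of 268 bases against 172 bases over protein-coding genes. The part of leader length in these shares was not tested. TRIB3, PPP1R15A, NUPR1 and SESN2 had upstream AUGs whose frames all closed before the coding sequence, and CHAC1, DDIT4 and CEBPB had none. The leader of the CHAC1 transcript used is only 20 bases long, so it left little room for an upstream AUG.

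ATF4 (ENSG00000128272.14, GRCh38 chr22:39519695-39522685, plus strand) had 449, 423 and 442 CPM in BT-549 MUC1shRNA libraries, against 418, 426 and 443 CPM in BT-549 CshRNA libraries. The 2 sets of values overlap, and the log2 fold change was 0.02 (SE 0.05). In SUM149 it had 126, 141 and 131 CPM with MUC1shRNA, against 431, 435 and 415 CPM with CshRNA. No SUM149 MUC1shRNA library came near a control library there, and the log2 fold change was -1.66 (SE 0.07), or 3.16-fold lower. By group, ATF4 averaged 438 CPM in BT-549 MUC1shRNA, 429 CPM in BT-549 CshRNA, 133 CPM in SUM149 MUC1shRNA and 427 CPM in SUM149 CshRNA, and the 3 high groups overlap each other. The 4 processed pseudogenes ATF4P1 to ATF4P4 held at most 7 counts each over all libraries.

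**Figure D1:**
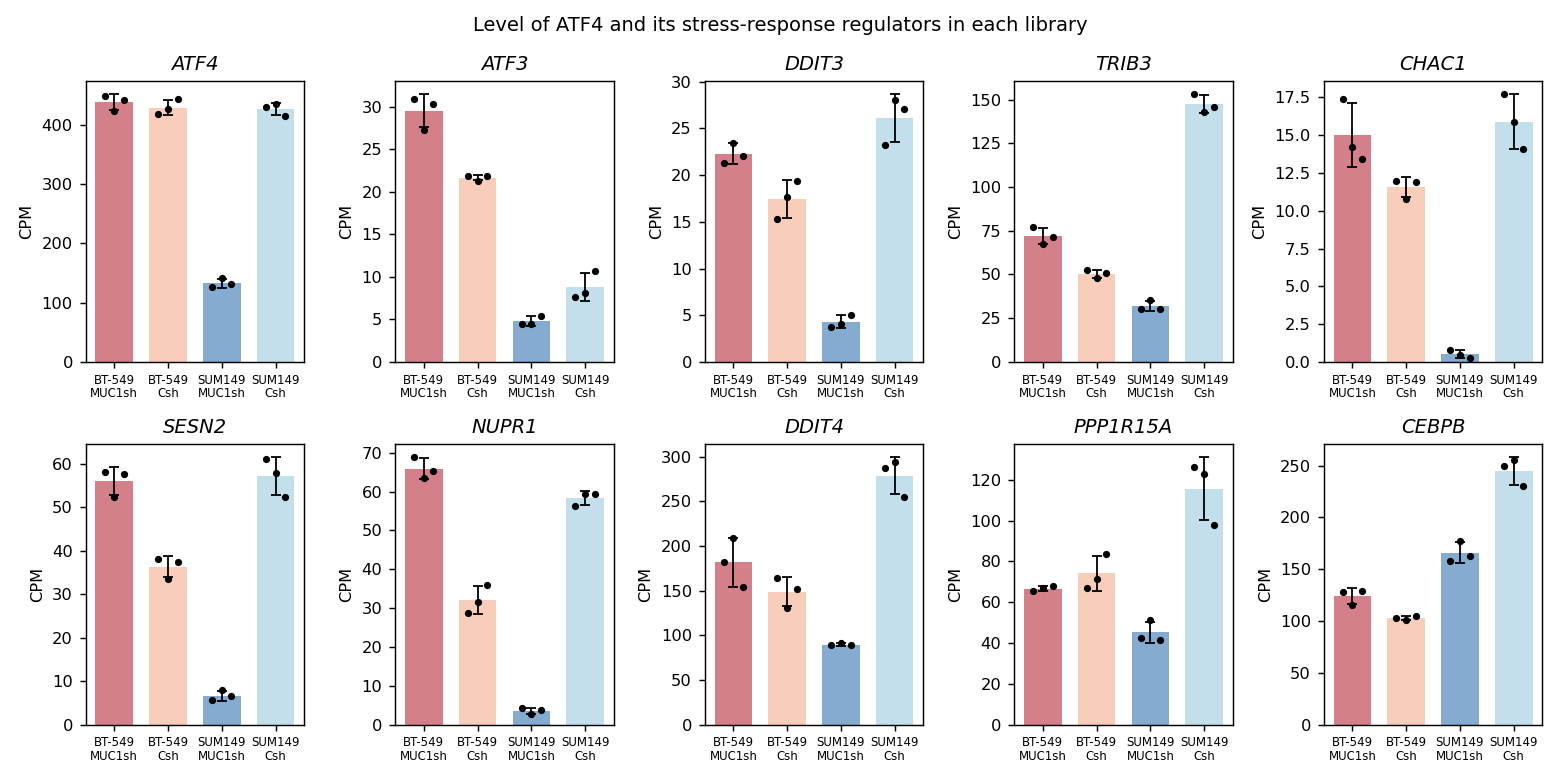
Level in CPM (vertical axis, from 0, a scale of its own in each panel) of the 10 genes in BT-549 MUC1shRNA, BT-549 CshRNA, SUM149 MUC1shRNA and SUM149 CshRNA cells. Each bar gives the mean of 3 libraries, each point 1 library and each error bar the SD. The SUM149 MUC1shRNA bar is the lowest in every panel except that of CEBPB, where it is the second highest at 166 CPM.

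ATF3 (ENSG00000162772.16, chr1:212565334-212620777, plus strand), a bZIP factor of the same family that is known to repress transcription as a homodimer, stood higher in BT-549 than in SUM149. It was at 30.9, 27.3 and 30.3 CPM in BT-549 MUC1shRNA, against 21.8, 21.3 and 21.8 CPM in BT-549 CshRNA libraries. ATF3 in SUM149 was at 4.44, 4.42 and 5.45 CPM with MUC1shRNA, against 7.62, 8.07 and 10.7 CPM with CshRNA. The arms did not overlap in either line, and the 4 groups stood in full order with both BT-549 groups above both SUM149 groups. The log2 fold changes were 0.44 (SE 0.07) in BT-549 and -0.85 (SE 0.17) in SUM149.

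DDIT3 (ENSG00000175197.11, chr12:57516588-57521737, minus strand) encodes CHOP, a C/EBP relative tied to cell death under lasting stress. In BT-549 it was at 21.3, 23.5 and 22.1 CPM with MUC1shRNA, against 15.3, 17.7 and 19.4 CPM with CshRNA, a log2 fold change of 0.34 (SE 0.10). In SUM149 it was at 3.76, 4.09 and 5.07 CPM with MUC1shRNA, against 23.2, 28.0 and 27.1 CPM with CshRNA, a log2 fold change of -2.56 (SE 0.14). The lowest BT-549 MUC1shRNA library lay just above the highest BT-549 control library, while the SUM149 arms were far apart. DDIT3 shares 27.2% of its exon bases with MARS1 on the opposite strand, a gene with 54464 counts in all, and the sources used here do not give the strand setting of the counting. Reads of DDIT3 and MARS1 may therefore not be fully separated. The BT-549 call of DDIT3 did not hold when MUC1shRNA 2, MUC1shRNA 3 or CshRNA 1 was left out, with log2 fold changes of 0.30, 0.35 and 0.25.

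CEBPB (ENSG00000172216.5, chr20:50190734-50192689, plus strand), a C/EBP factor and dimer partner of ATF4, had the smallest changes of the called genes. In BT-549 it was at 128, 115 and 129 CPM with MUC1shRNA, against 103, 101 and 105 CPM with CshRNA, a log2 fold change of 0.26 (SE 0.06). CEBPB in SUM149 was at 158, 177 and 163 CPM with MUC1shRNA, against 250, 255 and 230 CPM with CshRNA, a log2 fold change of -0.54 (SE 0.07). It was the 1 gene of the 10 for which SUM149 MUC1shRNA cells stayed above both BT-549 groups, and no 2 groups overlapped.

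NUPR1 (ENSG00000176046.8, chr16:28532708-28539174, minus strand), a small stress-induced chromatin protein, had the largest BT-549 change of the 10. It was at 68.9, 63.5 and 65.4 CPM in BT-549 MUC1shRNA, against 28.8, 31.5 and 35.9 CPM in BT-549 CshRNA libraries, a log2 fold change of 1.03 (SE 0.08). In SUM149 it was at 4.21, 2.69 and 3.85 CPM with MUC1shRNA, against 56.4, 59.4 and 59.3 CPM with CshRNA, a log2 fold change of -4.00 (SE 0.12). That is 2.04-fold higher in BT-549 MUC1shRNA and 16-fold lower in SUM149 MUC1shRNA cells, where NUPR1 ranked 23rd from the lowest of 14178 tested genes. The order of the groups by level was BT-549 MUC1shRNA, SUM149 CshRNA, BT-549 CshRNA and SUM149 MUC1shRNA, with no overlap between neighbours.

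TRIB3 (ENSG00000101255.10, chr20:362835-397559, plus strand), is a pseudokinase known to bind ATF4 and DDIT3 and dampen them. In BT-549 it was at 77.0, 67.4 and 71.6 CPM with MUC1shRNA, against 52.3, 47.8 and 51.0 CPM with CshRNA, a log2 fold change of 0.51 (SE 0.06). TRIB3 in SUM149 was at 30.2, 35.5 and 30.2 CPM with MUC1shRNA, against 153, 143 and 146 CPM with CshRNA, a log2 fold change of -2.18 (SE 0.08). SUM149 control cells had the highest TRIB3 of the 4 groups and SUM149 MUC1shRNA cells the lowest, with both BT-549 groups in between.

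PPP1R15A (ENSG00000087074.7, chr19:48872392-48876057, plus strand) encodes GADD34, the subunit that directs a phosphatase to eIF2 and so ends the response. In BT-549 it was at 65.5, 66.7 and 67.8 CPM with MUC1shRNA, against 67.1, 71.5 and 83.6 CPM with CshRNA. These libraries overlap, and PPP1R15A was the 1 gene of the 10 with a negative BT-549 estimate, a log2 fold change of -0.16 (SE 0.08). In SUM149 it was at 42.6, 51.3 and 41.6 CPM with MUC1shRNA, against 126, 123 and 97.9 CPM with CshRNA, a log2 fold change of -1.33 (SE 0.11).

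SESN2 and DDIT4 both restrain mTORC1, the kinase complex of cell growth, SESN2 as a leucine sensor and DDIT4 through the TSC complex. SESN2 (ENSG00000130766.4, chr1:28259527-28282491, plus strand) was at 58.1, 52.3 and 57.6 CPM in BT-549 MUC1shRNA, against 38.1, 33.6 and 37.4 CPM in BT-549 CshRNA libraries. SESN2 in SUM149 was at 5.58, 7.86 and 6.57 CPM with MUC1shRNA, against 61.1, 58.0 and 52.4 CPM with CshRNA. Its log2 fold changes were thus 0.61 (SE 0.07) in BT-549 and -3.07 (SE 0.12) in SUM149, and SUM149 CshRNA overlapped BT-549 MUC1shRNA at the top. DDIT4 (ENSG00000168209.4, chr10:72273920-72276036, plus strand) was at 182, 209 and 154 CPM in BT-549 MUC1shRNA, against 164, 131 and 152 CPM in BT-549 CshRNA libraries. DDIT4 in SUM149 was at 88.6, 90.9 and 89.4 CPM with MUC1shRNA, against 287, 294 and 255 CPM with CshRNA. The BT-549 arms of DDIT4 overlapped, with a log2 fold change of 0.28 (SE 0.11), while that in SUM149 was -1.61 (SE 0.07). The BT-549 value of DDIT4 passed the threshold without MUC1shRNA 3, at 0.38. An unnamed antisense gene covers 41.2% of the exon bases of DDIT4 and had 0 counts.

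CHAC1 (ENSG00000128965.11, chr15:40952962-40956519, plus strand) encodes an enzyme that degrades glutathione and is a direct ATF4 target. In BT-549 it was at 17.4, 14.2 and 13.4 CPM with MUC1shRNA, against 12, 10.8 and 11.9 CPM with CshRNA, a log2 fold change of 0.37 (SE 0.11). CHAC1 in SUM149 was at 0.797, 0.431 and 0.282 CPM with MUC1shRNA, against 17.7, 15.9 and 14.1 CPM with CshRNA, a log2 fold change of -4.98 (SE 0.24). The 3 SUM149 MUC1shRNA libraries held 7, 4 and 3 reads of CHAC1, 14 together (95% exact Poisson interval 7.65 to 23.5), against 1131 in the SUM149 CshRNA libraries. Scaled by depth, SUM149 CshRNA over SUM149 MUC1shRNA came to a ratio of 32.8 (19.5 to 60.2), an interval that covers counting error only. The BT-549 call of CHAC1 did not hold without MUC1shRNA 1, CshRNA 1 or CshRNA 2, with log2 fold changes of 0.25, 0.39 and 0.33. Only 8 of the 14178 genes tested in SUM149 had a lower fold change than CHAC1.

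**Figure D2:**
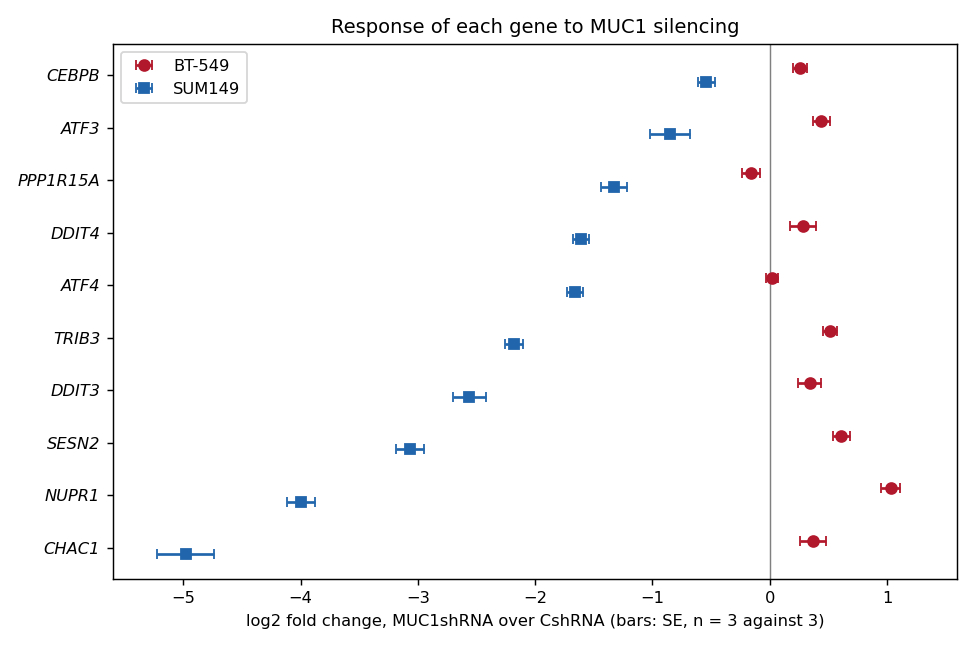
Log2 fold change of MUC1shRNA over CshRNA (horizontal axis, 0 marked) for each of the 10 genes in BT-549 (red circles) and SUM149 (blue squares), with SE as bars and 3 against 3 libraries. BT-549 values run from -0.16 to 1.03 and SUM149 values from -4.98 to -0.54, and every gene has its BT-549 point to the right of its SUM149 point.

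Counted against the adjusted p threshold of 0.05 in edgeR's quasi-likelihood test over all genes, 7 of the 10 genes were higher and 0 lower in BT-549 MUC1shRNA cells, where 33.3% of 13200 tested genes were called and 16.8% were called higher. All 10 were lower in SUM149 MUC1shRNA cells, where 56.5% of 14178 tested genes were called and 28.9% were called lower. Groups without overlap gave the same counts, 7 higher in BT-549 (24.2% of all genes) and 10 lower in SUM149 (34.2% of all genes). All 10 genes passed the filter on low counts in every comparison. The genes were chosen on these contrasts, so the counts are given beside their background and nothing is read from them. Their median log2 fold change was 0.36 in BT-549 and -1.92 in SUM149, against medians over all genes of -0.01 and -0.03. With BT-549 MUC1shRNA 1 left out, the number of genes called in BT-549 was 2716, against 4398 in the full set.

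The difference of the responses, BT-549 minus SUM149, was fitted over all 12 libraries. It was positive for all 10 genes and past the threshold for 10 of 10, where 39.6% of 15649 tested genes were called and 19.5% were called higher. This contrast contains both silencing contrasts and all their libraries, so it too is a description. CHAC1 had the largest difference at 5.36 (SE 0.28), followed by NUPR1 at 5.04 (SE 0.15) and SESN2 at 3.70 (SE 0.14). DDIT3 differed by 2.92 (SE 0.18), TRIB3 by 2.70 (SE 0.10), DDIT4 by 1.90 (SE 0.14) and ATF4 by 1.70 (SE 0.07). The smallest differences were those of ATF3 at 1.3 (SE 0.19), PPP1R15A at 1.19 (SE 0.15) and CEBPB at 0.81 (SE 0.09).

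The control cells of both lines were compared as well, which asks how the lines stood before silencing. The libraries of each line share a medium, so line, medium and library set cannot be told apart. These control libraries are also the ones the silencing contrasts use, so the choice of the genes can bear on this comparison too. Its values and p-values for the 10 genes are therefore a description. Of the 10 genes, 8 were lower and 1 was higher in BT-549 CshRNA than in SUM149 CshRNA cells by edgeR's test, where 82.8% of 15155 tested genes were called, 43.3% lower and 39.5% higher. The lines thus differed in most genes, and the share of these 10 past the test is close to that background. ATF3 was the gene higher in BT-549, by 1.24 (SE 0.13, adjusted p = 1.3e-05). TRIB3 was the lowest in BT-549 relative to SUM149, at -1.62 (SE 0.06, adjusted p = 9.8e-09), followed by CEBPB at -1.32 (SE 0.06, adjusted p = 3.5e-08). DDIT4 stood at -0.97 (SE 0.09), NUPR1 at -0.93 (SE 0.08), SESN2 at -0.72 (SE 0.08) and PPP1R15A at -0.71 (SE 0.11). DDIT3 stood at -0.65 (SE 0.11, adjusted p = 4.3e-04) and CHAC1 at -0.52 (SE 0.11, adjusted p = 0.0014). ATF4 averaged 429 ± 12.9 CPM in BT-549 CshRNA and 427 ± 10.7 CPM in SUM149 CshRNA cells (SD, n = 3 each). The estimate of -0.06 (SE 0.05) did not pass edgeR's test (adjusted p = 0.30). It was called lower in BT-549 under upper-quartile scaling, at -0.20, where the median of all genes also moved, and with genes under 5 CPM left out, at -0.16. The median of the 10 genes was -0.72, against -0.07 over all genes.

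**Figure D3:**
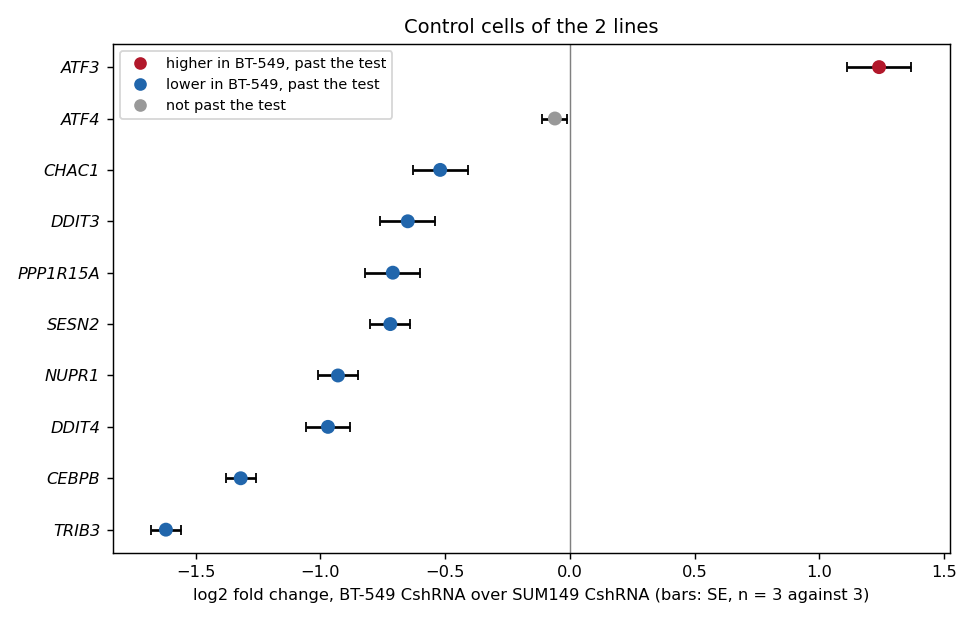
Log2 fold change of BT-549 CshRNA over SUM149 CshRNA cells (horizontal axis, 0 marked) for the 10 genes, with SE as bars and 3 against 3 libraries. ATF3 at 1.24 lies to the right of 0, ATF4 at -0.06 is not past the test, and the other 8 lie between -1.62 and -0.52.

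Per kilobase of exons, which allows levels of different genes to be compared, ATF4 was the most abundant of the 10 in 3 groups. It averaged 174 CPM per kb in BT-549 MUC1shRNA, 171 in BT-549 CshRNA and 170 in SUM149 CshRNA cells. In SUM149 MUC1shRNA cells ATF4 was at 52.8 CPM per kb, below CEBPB at 84.8 CPM per kb. DDIT4 and CEBPB held the next places in the other 3 groups, with DDIT4 at 88.3 CPM per kb in BT-549 MUC1shRNA, 72.4 in BT-549 CshRNA and 135 in SUM149 CshRNA cells. CHAC1 was at 7.3 CPM per kb in BT-549 MUC1shRNA and 5.63 in BT-549 CshRNA cells, against 0.244 in SUM149 MUC1shRNA and 7.72 in SUM149 CshRNA cells. The 10 genes together took 1050 to 1100 CPM in BT-549 MUC1shRNA and 892 to 962 CPM in BT-549 CshRNA libraries. In SUM149 they took 464 to 515 CPM with MUC1shRNA and 1310 to 1420 CPM with CshRNA.

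The genes around ATF4 were followed in 8 lists, from the eIF2 kinases to the metabolic targets. Of 128 listed genes, 122 were tested in each line. In BT-549, 28 rose and 17 fell in MUC1shRNA cells, and in SUM149, 31 rose and 58 fell (edgeR, adjusted p below 0.05). Over all tested genes, 33.3% were called in BT-549, 16.8% higher and the rest, slightly fewer genes, lower. In SUM149 56.5% were called, 28.9% lower and the rest, slightly fewer genes, higher. The counts of the lists, here and below, stand beside these shares, and nothing is read from a count alone. The BT-549 total of 45 was 28 without MUC1shRNA 1, 29 without MUC1shRNA 3 and 63 without both libraries that stood apart, MUC1shRNA 2 and CshRNA 3. Over all genes 4398 were called in BT-549 with every library, against 2716 without MUC1shRNA 1, 3011 without MUC1shRNA 3 and 3296 without CshRNA 1. They numbered 5325 without both libraries that stood apart, 3874 with DESeq2 and 2951 with a replicate block. Changes in the counts of the lists under these settings, here and below, stand beside these numbers. The lists were put together with results of these data known, so a list's direction is no independent evidence, and no test was made of a list as a whole.

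Upstream of ATF4, the list of eIF2 kinases, phosphatase subunits and adaptors had 4 genes that rose and 0 that fell of 14 in BT-549, and 4 that rose and 4 that fell of 14 in SUM149. Its median log2 fold change was 0.07 in each line. EIF2AK3, which encodes PERK, the kinase that senses unfolded protein, averaged 14.4 CPM in BT-549 MUC1shRNA and 9.58 CPM in BT-549 CshRNA cells, a rise of 0.58 (SE 0.11, edgeR adjusted p = 0.003). In SUM149 it averaged 16.6 CPM with MUC1shRNA and 15.9 CPM with CshRNA, a log2 fold change of 0.09 (adjusted p = 0.46). EIF2AK4, which encodes GCN2, the kinase that senses uncharged tRNA, stood at 0.06 in BT-549 (adjusted p = 0.4). In SUM149 EIF2AK4 averaged 303 CPM with MUC1shRNA and 193 CPM with CshRNA, a rise of 0.68 (SE 0.06, adjusted p = 7.7e-07). IMPACT, an inhibitor of GCN2 activation, stood at 0.08 in BT-549 (adjusted p = 0.57) and fell in SUM149 by 0.75 (SE 0.07). EIF2AK2, which encodes PKR, the kinase of double-stranded RNA, stood at -0.13 in BT-549 (adjusted p = 0.25) and rose in SUM149 by 0.42 (SE 0.08, adjusted p = 4.4e-04). EIF2AK1, the heme-regulated kinase, passed the test in neither line, at 0.07 in BT-549 and 0.05 in SUM149. OMA1, the mitochondrial protease upstream of that kinase, rose in BT-549 by 0.32 (adjusted p = 0.036) and fell in SUM149 by 0.39 (adjusted p = 0.028). PPP1R15B, the constitutive partner of PPP1R15A, rose by 0.14 (SE 0.05) in BT-549, just past the threshold, and fell by 0.21 (SE 0.07, adjusted p = 0.016) in SUM149. The 4 BT-549 calls of this list dropped to 1 without MUC1shRNA 1, MUC1shRNA 3 or CshRNA 1, and with all libraries to 1 with DESeq2, 1 with a replicate block and 2 in a single fit over all 12 libraries. The call of OMA1 was lost in both lines when some single libraries were left out, with edgeR adjusted p up to 0.12. That of PPP1R15B was lost in BT-549 whichever single library was left out, with edgeR adjusted p from 0.068 to 0.15. In SUM149 the call of PPP1R15B was lost without MUC1shRNA 2 or MUC1shRNA 3. EIF2AK2 was called lower in BT-549 without CshRNA 3, at -0.23 (adjusted p = 0.0077).

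Among the 8 subunits of eIF2 and of its exchange factor eIF2B, 0 rose and 1 fell in BT-549, and 5 rose and 1 fell in SUM149, with medians of -0.06 and 0.19. EIF2B5, the catalytic subunit, fell by 0.52 (SE 0.07, edgeR adjusted p = 5.7e-04) in BT-549 and rose by 0.28 (SE 0.06, adjusted p = 0.0015) in SUM149. EIF2B3, another subunit, stood at -0.06 in BT-549 (adjusted p = 0.43) and rose in SUM149 by 0.61 (SE 0.07). EIF2B2 passed the test in neither line, at 0.24 in BT-549 (adjusted p = 0.069) and 0.17 in SUM149 (adjusted p = 0.14). In BT-549, 2 of these genes were called without CshRNA 3, 2 with no filter on low counts and 3 without both MUC1shRNA 2 and CshRNA 3. EIF2B2 was among those called without CshRNA 3, at 0.36 (adjusted p = 0.0028), and in SUM149 it was called without MUC1shRNA 2, at 0.26 (adjusted p = 0.034).

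Of the bZIP partners and relatives of ATF4, 5 rose and 3 fell of 19 tested in BT-549, and 3 rose and 10 fell of 20 tested in SUM149. CEBPG, a C/EBP partner of ATF4, stood at 0.15 in BT-549 (adjusted p = 0.091). In SUM149 CEBPG averaged 53.5 CPM with MUC1shRNA and 130 CPM with CshRNA and fell by 1.26 (SE 0.09). CEBPD, another C/EBP factor, stood at -0.18 in BT-549 (adjusted p = 0.12) and fell in SUM149 by 1.29 (SE 0.11). CEBPA had too few counts to be tested in BT-549 and fell in SUM149 by 0.63 (SE 0.23, adjusted p = 0.034), at 1.79 CPM with MUC1shRNA and 2.82 CPM with CshRNA. ATF5, a relative of ATF4 whose leader also holds an overlapping upstream frame, fell in BT-549 by 0.90 (SE 0.10, adjusted p = 1.7e-04) and stood at 0.17 in SUM149 (adjusted p = 0.17). It shares 21.2% of its exon bases with NUP62 on the opposite strand. JUN, a subunit of AP-1, stood at -0.05 in BT-549 (adjusted p = 0.62). In SUM149 JUN averaged 52.8 CPM with MUC1shRNA and 11.4 CPM with CshRNA, a rise of 2.23 (SE 0.13). JUND, another AP-1 subunit, rose in BT-549 by 0.72 (SE 0.07) and fell in SUM149 by 0.60 (SE 0.09). JDP2, a repressor of AP-1, fell in both lines, by 1.14 (SE 0.24, adjusted p = 0.0062) in BT-549 and by 2.78 (SE 0.14) in SUM149. With all libraries 8 genes of this list were called in BT-549, against 5 without CshRNA 1 and 13 without both MUC1shRNA 2 and CshRNA 3. CEBPD was called lower in BT-549 without CshRNA 3 (-0.26, adjusted p = 0.015) and CEBPG higher without MUC1shRNA 2 (0.21, adjusted p = 0.028), while the SUM149 call of CEBPA was lost without CshRNA 2, CshRNA 3, MUC1shRNA 2 or MUC1shRNA 3.

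The relatives of TRIB3 had smaller estimates in SUM149 than TRIB3 itself. TRIB1, a pseudokinase that brings C/EBP proteins to the ubiquitin ligase COP1, averaged 78.4 CPM in BT-549 MUC1shRNA and 49 CPM in BT-549 CshRNA cells, a rise of 0.67 (SE 0.06, edgeR adjusted p = 3.8e-05). In SUM149 it fell by 0.23 (SE 0.07, adjusted p = 0.0097), against -2.18 for TRIB3. TRIB2 rose in BT-549 by 0.51 (SE 0.10, adjusted p = 0.0033) and was at 1.07 CPM in SUM149 MUC1shRNA and 1.92 CPM in SUM149 CshRNA cells, a log2 fold change of -0.85 that missed the threshold (SE 0.36, adjusted p = 0.06). Of the 7 genes of this list, which includes the ligase that marks ATF4 for breakdown, 4 rose and 0 fell in BT-549 and 5 rose and 1 fell in SUM149. SKP1, a core subunit of that ligase, rose by 0.39 in each line (adjusted p = 7.7e-04 and 3.5e-04), and RBX1, its ring subunit, rose in SUM149 by 0.69 (SE 0.08). Without SUM149 MUC1shRNA 3 the call of TRIB1 in SUM149 was lost (-0.20, adjusted p = 0.069), and TRIB2 was called lower there without CshRNA 3 (-1.12, adjusted p = 0.0031) or MUC1shRNA 1 (-1.14, adjusted p = 0.039).

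In the mTORC1 circuit around SESN2 and DDIT4, 0 rose and 3 fell of 16 tested in BT-549, and 2 rose and 5 fell of 16 tested in SUM149. SESN1, a relative of SESN2, passed the test in neither line, at 0.35 (SE 0.12, adjusted p = 0.053) in BT-549 and 0.33 (adjusted p = 0.2) in SUM149. SESN3 was at 2.04 ± 0.649 CPM in SUM149 MUC1shRNA and 8.41 ± 11.8 CPM in SUM149 CshRNA cells (SD, n = 3 each), where 1 control library reached 22 CPM and another had 1.55 CPM. DDIT4L, the paralog of DDIT4, was below 1 CPM in every library and was not tested. EIF4EBP1, a translation repressor under mTORC1, fell in both lines, by 0.20 (SE 0.06, adjusted p = 0.029) in BT-549 and by 0.86 (SE 0.08, adjusted p = 2e-06) in SUM149. RHEB, the activator of mTORC1, fell by 0.20 in BT-549 (adjusted p = 0.015) and by 0.40 in SUM149 (adjusted p = 1.8e-04). TSC1, a subunit of the complex that DDIT4 acts through, fell in BT-549 by 0.54 (SE 0.07) and stood at 0.05 in SUM149 (adjusted p = 0.63). MTOR, the kinase of the complex, rose in SUM149 by 0.62 (SE 0.07). Without BT-549 MUC1shRNA 1, 1 of these genes was called in BT-549, and likewise 1 with a replicate block. The BT-549 call of EIF4EBP1 was lost without any 1 library but CshRNA 1, and that of RHEB without MUC1shRNA 1 or MUC1shRNA 3. SESN1 was called higher in BT-549 without MUC1shRNA 3 (0.44, adjusted p = 0.038) and in SUM149 without CshRNA 3 (0.67, adjusted p = 2.6e-04). SESN3 was called lower in SUM149 without CshRNA 1 (-2.51, adjusted p = 0.01) or CshRNA 2 (-2.49, adjusted p = 0.0085). Both of these SESN3 fits kept the control library at 22 CPM.

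Of 9 genes tied to cell death downstream of DDIT3, 3 rose and 1 fell in BT-549, and 2 rose and 5 fell in SUM149. BBC3, which encodes the death protein PUMA, averaged 7.68 CPM in BT-549 MUC1shRNA and 4.49 CPM in BT-549 CshRNA cells, a rise of 0.76 (SE 0.14, edgeR adjusted p = 0.0025). In SUM149 BBC3 averaged 4.38 CPM with MUC1shRNA and 18.5 CPM with CshRNA and fell by 2.05 (SE 0.13, adjusted p = 2.7e-08). TXNIP, an inhibitor of thioredoxin, rose in BT-549 by 0.47 (SE 0.08) and fell in SUM149 by 0.75 (SE 0.06). TNFRSF10B, a death receptor for TRAIL, fell in BT-549 by 0.49 (SE 0.07) and stood at 0.03 in SUM149 (adjusted p = 0.74).

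The metabolic targets of ATF4 include genes of amino acid supply and one-carbon metabolism and secreted stress hormones. Of 31 tested in BT-549, 12 rose and 4 fell, and the median log2 fold change was 0.15. Of 30 tested in SUM149, 29 fell and 0 rose, and the median was -1.37. ASNS, asparagine synthetase, averaged 226 CPM in BT-549 MUC1shRNA and 191 CPM in BT-549 CshRNA cells, a rise of 0.24 (SE 0.06, edgeR adjusted p = 0.013). In SUM149 ASNS averaged 19.8 CPM with MUC1shRNA and 208 CPM with CshRNA and fell by 3.37 (SE 0.08, adjusted p = 1.1e-11). A further annotated gene on the same strand covers 44.6% of the exon bases of ASNS, but it is not among the genes of the deposited counts. SLC7A11, the cystine transporter, rose in BT-549 by 0.48 (SE 0.12, adjusted p = 0.016). In SUM149 SLC7A11 averaged 3.4 CPM with MUC1shRNA and 108 CPM with CshRNA and fell by 4.98 (SE 0.13, adjusted p = 2e-11). GDF15, a secreted stress hormone, averaged 78.3 CPM in BT-549 MUC1shRNA and 28.7 CPM in BT-549 CshRNA cells, a rise of 1.44 (SE 0.08). In SUM149 GDF15 averaged 1.16 CPM with MUC1shRNA and 20.8 CPM with CshRNA and fell by 4.07 (SE 0.30). Of the 35 GDF15 reads of the SUM149 MUC1shRNA libraries, 25 were in MUC1shRNA 3, which stood at 2.35 CPM against 0.797 and 0.323 CPM in its replicates, and without it the fall was 5.17. SLC6A9, a glycine transporter, rose in BT-549 by 1.3 (SE 0.09) and fell in SUM149 by 2.20 (SE 0.10). The number of BT-549 calls in this list was 9 without MUC1shRNA 1 and 10 without MUC1shRNA 3, against 16 with all libraries. The BT-549 calls of ASNS (adjusted p = 0.066 and 0.065) and SLC7A11 (adjusted p = 0.073 and 0.061) were lost without MUC1shRNA 1 and without MUC1shRNA 3.

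The ATF6 and XBP1 branches, the other arms of the response to unfolded protein, were set beside the ATF4 genes. In BT-549, 0 of 18 rose and 5 fell, with a median of -0.07, and in SUM149, 10 of 18 rose and 3 fell, with a median of 0.23. HSPA5, the chaperone BiP, stood at -0.01 in BT-549 (edgeR adjusted p = 0.92). In SUM149 HSPA5 averaged 708 CPM with MUC1shRNA and 580 CPM with CshRNA, a rise of 0.31 (SE 0.06, adjusted p = 6.1e-04). XBP1, the factor of the second branch, stood at 0.03 in BT-549 (adjusted p = 0.77) and fell in SUM149 by 1.38 (SE 0.07). HERPUD1, a degradation factor of the endoplasmic reticulum that ATF4 is also known to induce, stood at 0.15 in BT-549 (adjusted p = 0.14) and fell in SUM149 by 1.51 (SE 0.09). DNAJB9, a target of XBP1, passed the test in neither line, at 0.22 in BT-549 (adjusted p = 0.18) and -0.18 in SUM149 (adjusted p = 0.33). SEC61B, a subunit of the translocation channel, fell in BT-549 by 0.32 (SE 0.07), and HYOU1, a chaperone, by 0.23 (SE 0.05). The 5 BT-549 calls of this list became 2 without MUC1shRNA 1, 2 without MUC1shRNA 3, 3 without CshRNA 1, 3 with a replicate block, 8 without MUC1shRNA 2 and 10 without both MUC1shRNA 2 and CshRNA 3. Without MUC1shRNA 2, HERPUD1 (0.23, adjusted p = 0.03) and DNAJB9 (0.32, adjusted p = 0.044) were called higher in BT-549.

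**Figure D4:**
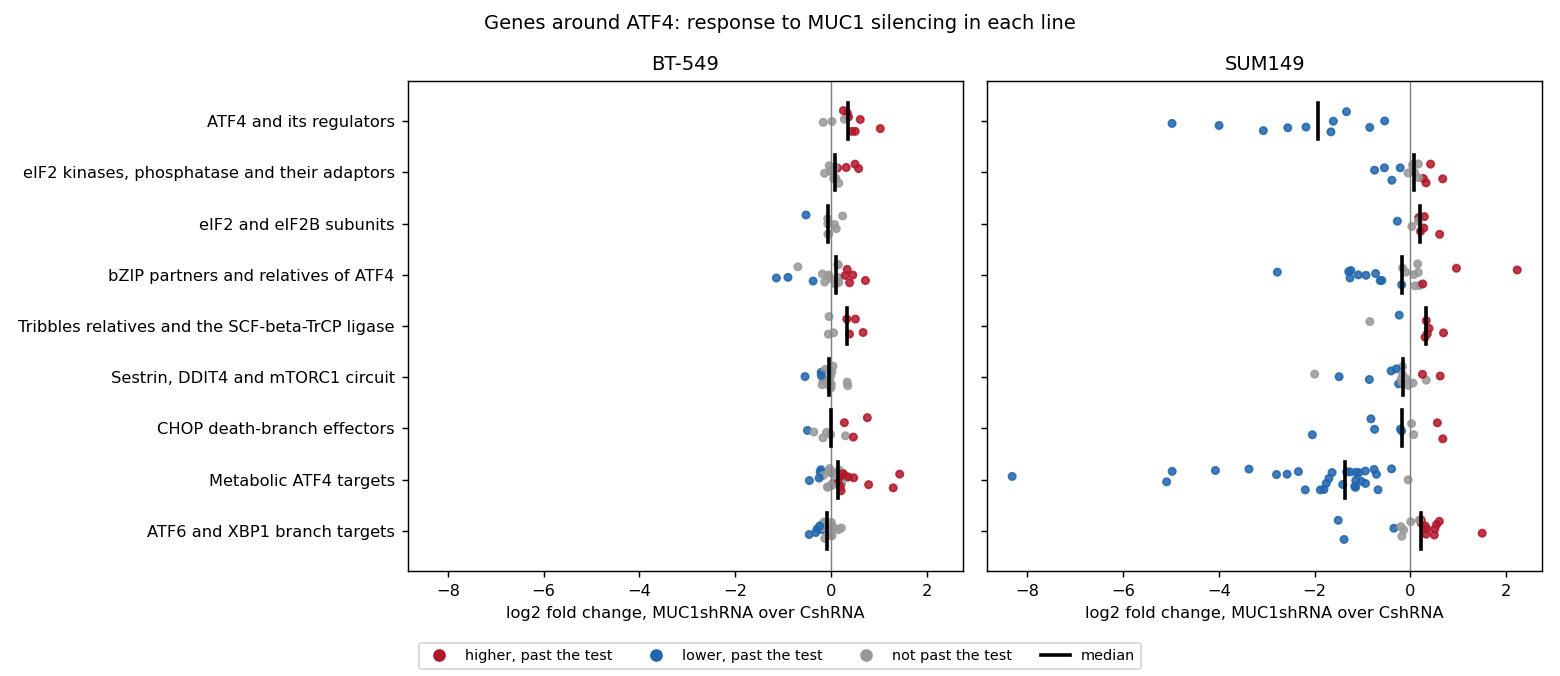
Log2 fold change of MUC1shRNA over CshRNA (horizontal axis, 0 marked) of every tested gene of the 10 and of the 8 lists, in BT-549 (left) and SUM149 (right). Points are genes, red for higher and blue for lower past the test and grey for not past it, and black bars are medians; in SUM149 the medians of the 10 genes and of the metabolic targets, -1.92 and -1.37, lie left of all other medians.

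The genes with a pattern most like the mean of the 10 were sought among 11596 genes. Log2 CPM was centred within each line over all 12 libraries, and the root mean square difference from the mean profile of the 10 genes was taken. The closest were ARHGEF37 at 0.105, IL20RB, a cytokine receptor subunit, at 0.132, STC2, a secreted glycoprotein hormone, at 0.141, UST, a sulfotransferase, at 0.143, F2R, the thrombin receptor, at 0.143, and ALDH3B2, an aldehyde dehydrogenase, at 0.149. ALDH3B2 had too few counts to be tested in BT-549, so no response of it was measured there. Of the 10 genes themselves, TRIB3 lay closest to their mean at 0.0853 and CHAC1 farthest at 0.917. STC2 is also on the list of metabolic targets of ATF4. It averaged 821 CPM in BT-549 MUC1shRNA and 697 CPM in BT-549 CshRNA cells, and 46.4 CPM in SUM149 MUC1shRNA and 281 CPM in SUM149 CshRNA cells.

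Markers of other cell types were read beside these values. The 6 leukocyte markers summed to 1.07 to 1.5 CPM in BT-549 MUC1shRNA, 1.67 to 2.24 in BT-549 CshRNA, 2.28 to 3.19 in SUM149 MUC1shRNA and 4.75 to 4.98 in SUM149 CshRNA libraries, with CD3E at 0 in all 4 groups. The 5 endothelial markers summed to 9.48 to 11.0 CPM in SUM149 MUC1shRNA and 26.4 to 30.0 CPM in SUM149 CshRNA libraries, nearly all of it PECAM1, while the defining marker CDH5 was below 0.12 CPM. In BT-549 they summed to 0.274 to 0.427 CPM with MUC1shRNA and 0.335 to 0.813 CPM with CshRNA. The 3 adipocyte markers summed to 19.4 to 21.7 CPM in SUM149 MUC1shRNA and 37.1 to 38.4 CPM in SUM149 CshRNA libraries, nearly all of it LPL, with ADIPOQ at 0. In BT-549 they reached at most 0.12 CPM with MUC1shRNA and 0.0542 CPM with CshRNA. The 6 epithelial markers summed to 823 to 1070 CPM in BT-549 MUC1shRNA and 337 to 392 CPM in BT-549 CshRNA libraries. Among them KRT8, a keratin of simple epithelia, averaged 290 CPM in BT-549 MUC1shRNA and 45.6 CPM in BT-549 CshRNA cells, a rise of 2.66 (SE 0.08, edgeR adjusted p = 1.3e-07). Its partner KRT18 averaged 674 CPM in BT-549 MUC1shRNA and 297 CPM in BT-549 CshRNA cells, a rise of 1.17 (SE 0.11), while EPCAM and CDH1 stayed below 2 CPM in BT-549. In SUM149 the epithelial markers summed to 1710 to 1790 CPM with MUC1shRNA and 1770 to 1800 CPM with CshRNA, and KRT5, a basal keratin, fell by 0.99 (SE 0.07). The 3 mesenchymal markers summed to 3250 to 4300 CPM in BT-549 MUC1shRNA, 3090 to 3510 in BT-549 CshRNA, 2900 to 3240 in SUM149 MUC1shRNA and 747 to 847 in SUM149 CshRNA libraries. Nearly all of the SUM149 sums was FN1, a matrix gene, at 3010 CPM with MUC1shRNA and 750 CPM with CshRNA, while VIM averaged 31.2 CPM with MUC1shRNA and 30.7 CPM with CshRNA. The share of mitochondrial transcripts was 3.57% to 3.99% in BT-549 MUC1shRNA, 3.06% to 4.61% in BT-549 CshRNA, 5.08% to 5.95% in SUM149 MUC1shRNA and 5.38% to 6.46% in SUM149 CshRNA libraries. The part of these markers, and of the lower depth of the SUM149 MUC1shRNA arm, in the values of the 10 genes was not tested.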

How the data were processed

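Gene expression was measured by RNA sequencing in 12 libraries, 3 in each of 4 groups, with RNA isolated by Trizol and libraries made with the TruSeq Stranded mRNA kit, per the labels' protocols. The deposited table holds raw counts made by the authors, with a column for each library and no normalization. Per the submitters' processing notes, CASAVA 1.8.2, STAR 2.7.0 and DESeq2 1.24.0 were used with the build GRCh38.p7, with no role stated. How reads were counted, on which strand and against which annotation is not stated in the sources used here, so reads of overlapping genes may not be separated. Depth ran from 7931614 to 24140623 counts, and intervals cover counting error only.

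Symbols, positions, exon overlaps and leaders came from GENCODE 29 on GRCh38, and promoters from RefSeq on GRCh38.p14. Of 58037 lines, 45 Y copies of pseudoautosomal genes were left out. Replicates differed by more than sampling noise, with a chi-square per degree of freedom of at least 1.85.

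The silencing contrasts were fitted within a line by edgeR 4.0.16 (R 4.3.3) with TMM scaling, filterByExpr, the quasi-likelihood test and Benjamini-Hochberg adjustment over all genes tested. The difference of the responses was fitted over 12 libraries and the control comparison over the 6 CshRNA libraries. The SE is the absolute log2 fold change divided by the square root of the F statistic. Levels are CPM with TMM scaling over all libraries. The steps were tested on simulated counts with planted changes of a larger and a smaller size. Calls without a planted change were 10 of 166 in BT-549 and 18 of 150 in SUM149. They were 19 of 142 between controls and 7 of 119 for the difference of the responses. Of the larger changes, 87%, 79.2%, 77.8% and 73.4% were recovered, in the same order. Of the smaller changes, 69.7%, 56.6%, 47.4% and 44.8% were recovered.

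Genes named beyond the 10 and MUC1 were 21 genes of the lists named in any case, the 2 members of a list with the lowest adjusted p per line, the 6 genes with the most similar profile (prior count of 2, at least 5 CPM in a group) and cell type markers. The 10 genes, the lists and the tests were chosen with earlier results of these data known. Alternatives were DESeq2 1.42.0, limma-voom (limma 3.58.1), RLE or upper-quartile scaling, no filter, a minimum of 5 CPM in 3 libraries, a single fit over all libraries, a block for the replicate number, each library left out, and BT-549 MUC1shRNA 2 and CshRNA 3 left out together.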

Additional observations from a re-analysis of the deposited data

Results flagged for a closer look

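For 42 of the 50 named genes that were tested for it, the response to MUC1 silencing differed between the lines by edgeR's interaction test over all 12 libraries, where 39.6% of all tested genes did. Values are the log2 fold change in BT-549 minus that in SUM149, so a positive value means that the gene was higher in MUC1shRNA relative to CshRNA cells in BT-549 than in SUM149. Of the 10 genes of the ATF4 group, all 10 were among them, and they had been chosen with these contrasts known. Their values were 1.70 for ATF4, 1.3 for ATF3, 2.92 for DDIT3, 0.81 for CEBPB, 5.04 for NUPR1, 2.70 for TRIB3, 1.19 for PPP1R15A, 3.70 for SESN2, 1.90 for DDIT4 and 5.36 for CHAC1.

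Of the 40 other genes, 32 were among them. Some of these 40 had been named for a low adjusted p in a silencing contrast, and the interaction contains both silencing contrasts. Their share is therefore a description and cannot be weighed against the share of all genes. Upstream of ATF4 the differences were -0.54 for EIF2AK2, 0.50 for EIF2AK3, -0.60 for EIF2AK4, 0.84 for IMPACT, 0.72 for OMA1, 0.37 for PPP1R15B, -0.79 for EIF2B5 and -0.66 for EIF2B3. Among bZIP factors they were -1.05 for ATF5, 1.43 for CEBPG, 1.12 for CEBPD, 1.33 for JUND, 1.65 for JDP2 and -2.27 for JUN. The Tribbles relatives TRIB1 and TRIB2 differed by 0.92 and 1.39, and the ligase subunit RBX1 by -0.73. In the mTORC1 circuit the values were 0.67 for EIF4EBP1, -0.58 for TSC1, 0.21 for RHEB and -0.57 for MTOR. Of the genes tied to cell death, BBC3 differed by 2.82, TXNIP by 1.23 and TNFRSF10B by -0.50. The metabolic targets had the widest differences, 3.62 for ASNS, 5.47 for SLC7A11, 5.52 for GDF15 and 3.51 for SLC6A9. In the ATF6 and XBP1 branches the values were -0.31 for HSPA5, 1.68 for HERPUD1, 1.43 for XBP1 and -0.49 for SEC61B.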

How the results depend on the processing

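Of 150 values of the 10 genes in BT-549 over 15 alternatives, 138 kept their direction and side of the threshold, 7 lost the call, 4 gained it and 1 changed sign. In SUM149 all 140 values kept both, as did all 190 of the difference of the responses, and 138 of 140 in the control comparison. The number of the 10 genes called ran from 5 to 8 in BT-549, stayed at 10 in SUM149 and for the difference of the responses, and ran from 9 to 10 between the controls. Over all genes the share called ran from 17.8% to 40.5% in BT-549 and from 28.7% to 63.6% in SUM149. That share ran from 18.6% to 50% for the difference of the responses and from 48.3% to 85.2% between the controls. Without BT-549 CshRNA 1, where DDIT3 and CHAC1 both lost the call, 24.5% of all genes were called, against 33.3% with every library. Lost BT-549 calls were those of CHAC1 and DDIT3, and DDIT4 was called without a filter, with DESeq2, in the single fit over all libraries and without MUC1shRNA 3, at 0.28 to 0.38. ATF4 in BT-549 ran from -0.00084 without CshRNA 1 to 0.05 without MUC1shRNA 2 as libraries were left out, never past the threshold. Genes of the 8 lists called in BT-549 numbered 28 (without MUC1shRNA 1) to 52 (without MUC1shRNA 2) as single libraries were left out, and 63 without both libraries that stood apart (MUC1shRNA 2 and CshRNA 3), where 5325 of all genes were called, against 45 of the lists and 4398 of all genes with every library. The cause of these changes was not tested. In windows of 250 bases before the start, 3.14% held TGATGNAA and 1.65% held TGACGTCA, because the window is shorter. With a replicate block for the title number, 6 of the 10 genes and 2951 of all genes were called in BT-549, and CHAC1 was not (0.36, edgeR adjusted p = 0.061). The deviations of same-numbered libraries had correlations of 0.13, -0.31 and -0.25 in BT-549 and -0.05, 0.06 and 0.10 in SUM149. With 3 libraries per group, such values cannot settle whether the numbers mark pairs. The lower depth of the SUM149 MUC1shRNA arm limits CHAC1 most, with 3 to 7 reads per library there.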
